A study of Mus musculus with 3 samples.

Results

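The DEAD box and DEAH box proteins are RNA helicases named after a stretch of amino acids in their ATP-binding motor. They were followed as the 50 genes of the GENCODE M21 annotation whose symbol starts with Ddx or Dhx followed by a digit and which have a protein-coding transcript, of 22028 protein-coding genes in the tables. Of the 50, 35 are DDX and 15 are DHX genes. Ddx3y, Ddx58 and Dhx58 were not included. The study measured total RNA of the chromatin fraction, depleted of ribosomal RNA, from primary macrophages of strain C57BL/6J, derived from bone marrow and treated with lipid A at 100 ng/ml for 15 min. There was 1 group with 3 biological replicates, and all 3 libraries received lipid A. No untreated library was analysed here, so every value is a level and none is a response to lipid A. The labels give 1 donor for all 3 libraries and separate biosamples, so the spread between replicates may be smaller than that between animals. Age and sex were not collected, per the labels.

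RNA helicases of both families bind RNA and use ATP to separate base pairs or to remove proteins from it. DEAH box proteins move along the RNA strand, whereas DEAD box proteins pry open short helices locally. Between them they act at nearly every step of an RNA's life: transcription, splicing, export, ribosome assembly, translation and decay. In macrophages some of them also take part in sensing foreign nucleic acid. Chromatin-bound RNA is rich in transcripts that are still being made and spliced, so both intron-containing and mature forms of the helicases' own messages can be seen in it.

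Libraries differed in depth, with 10974934, 21376404 and 14376665 expected counts in replicates 1, 2 and 3. Starting RNA also differed, at 1 µg, 250 ng and 500 ng in replicates 1, 2 and 3. The helicase genes held 0.605 ± 0.0529% of the counts (SD, n = 3). Of 8 macrophage markers, 8 reached 1 TPM (transcripts per 1000000) in all libraries, from 13.4 TPM for Fcgr1 to 189 TPM for Lyz2 on average. Of 16 markers of other cell types none did in the gene tables, where 6 were at 0 in all libraries and the highest was Ngp at 0.497 ± 0.144 TPM (SD, n = 3). In a second deposited quantification of the same libraries, 7 of the 16 averaged at least 1 TPM and 3 were at 0, with Cd3d at 16.1 TPM and Pecam1 at 5.76 TPM as the highest. The part of such cells in the helicase levels was not tested. In bulk RNA of this kind, fewer cells of a type and less RNA per cell cannot be told apart.

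Nearly all of the genes chosen by symbol were present on chromatin. Of the 50 helicase genes, 47 (94%) had at least 1 TPM in all 3 libraries, against 42.4% of all protein-coding genes. The median helicase gene had 10.4, 11.5 and 14.0 TPM in replicates 1, 2 and 3, against 0.58, 0.37 and 0.68 TPM for the median protein-coding gene. The helicase median thus stood above every library's protein-coding median, and it exceeded 81.3 ± 3.04% of protein-coding genes (SD, n = 3). On average 30 helicase genes had at least 10 TPM and 8 had at least 50 TPM, levels at which protein-coding genes as a whole were not counted. The 8 were Ddx5, Ddx17, Ddx3x, Ddx60, Ddx39b, Dhx15, Ddx50 and Dhx9.

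**Figure D1:**
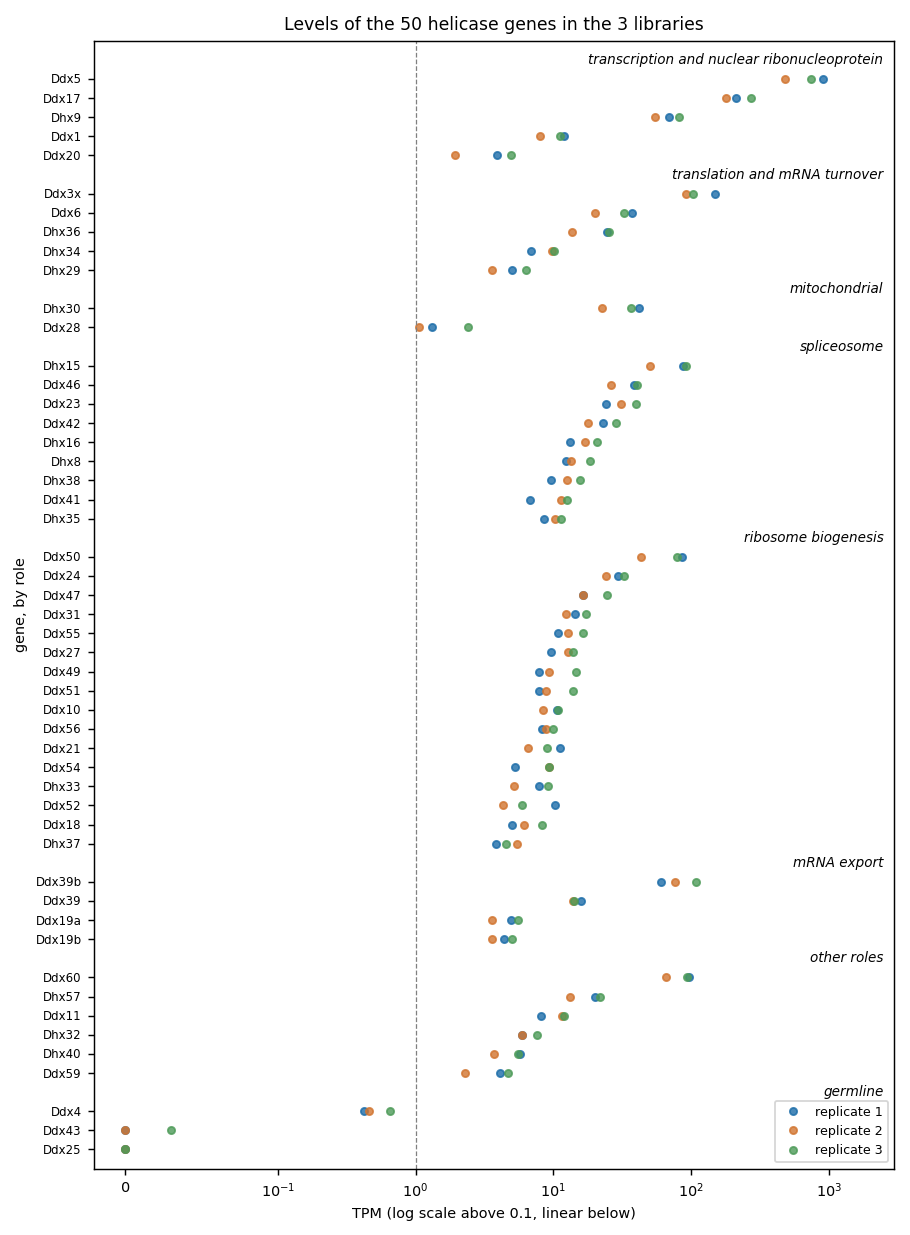
Level of each of the 50 helicase genes in TPM (horizontal axis, logarithmic above 0.1 and linear below), grouped by role, with 1 point for each of the 3 libraries and a dashed line at 1 TPM. Ddx5 stands at the top with 482 to 903 TPM, and the 3 germline genes are the only ones left of the line.

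The most abundant helicase message was that of Ddx5 (ENSMUSG00000020719.14, chr11:106780355-106789185, minus strand, GRCm38), also called p68, a coactivator of transcription and splicing factor. Ddx5 had 903, 482 and 742 TPM in replicates 1, 2 and 3, with a mean of 709 ± 212 TPM (SD, n = 3). It ranked 6 among all protein-coding genes by mean TPM and held 36.2 ± 4.88% of the TPM of all helicase genes. Replicate 1 was the highest library and replicate 2 the lowest.

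Most Ddx5 reads were assigned to an isoform that keeps an intron. Ddx5-208, annotated as a target of nonsense-mediated decay because its reading frame ends early, had 397, 229 and 393 TPM in replicates 1, 2 and 3. The full-length protein-coding isoform Ddx5-201 had 139, 68.5 and 122 TPM in the same libraries. Ddx5-208 was thus higher than Ddx5-201 in each of the 3 libraries. On counts, Ddx5-208 held 69.5 ± 2.32% of the gene's reads and Ddx5-201 22.0 ± 1.25% (SD, n = 3). The authors' posterior SD of the Ddx5-208 count averaged 115, for a mean count of 21083.

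Ddx5-208 differs from Ddx5-201 in that it retains all 1265 bases of the intron at chr11:106782694-106783958 and ends before the long last exon of Ddx5-201 does. The edges of this intron and the miRNAs inside it are shown because most Ddx5 reads were assigned to the isoform that keeps it. Each splice-site window runs 5′ to 3′ on the minus strand, holds 10 exon and 20 intron bases, and has the first or last 2 intron bases in capitals. The windows are chr11:106783939-106783968 and chr11:106782684-106782713 of GRCm38, read from the GENCODE M21 transcripts.
Ddx5-208 5′ splice site: agagggctagGTtagtacaaactcgaattc
Ddx5-208 3′ splice site: cacactgcaacaccttacAGatgtggaaga
The intron holds both mature miRNAs of Mir3064, here from RefSeq (GRCm38.p6) with the seed, bases 2 to 8, in capitals.
mmu-miR-3064-5p: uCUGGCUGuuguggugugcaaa
mmu-miR-3064-3p: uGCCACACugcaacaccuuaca
The seeds of the pair differ. The 3p miRNA lies at chr11:106782695-106782716, so its last base is the A of the AG that ends the intron, and the hairpin runs 1 base past the intron's end. The 5p miRNA lies at chr11:106782736-106782757. Mir3064 itself and the small RNA gene Gm25994, which lies in the same intron, were listed at 0 TPM in every library. So was every other small RNA gene that overlaps a helicase gene, of 61 to 128 bases. The 0 therefore does not show that the miRNAs were absent.

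A further Ddx5 isoform, Ddx5-202, is annotated as a retained-intron transcript and keeps the neighbouring 82-base intron at chr11:106784019-106784100. Its last exon also runs 226 bases into the 1265-base intron that Ddx5-208 keeps, and ends there. Reads assigned to Ddx5-202 may thus come from either intron. The whole 82-base intron is shown, minus strand, with its GT and AG ends in capitals.
Ddx5-202 intron: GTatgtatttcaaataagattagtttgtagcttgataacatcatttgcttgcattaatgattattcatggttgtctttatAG
Ddx5-202 had 242, 61.6 and 89.7 TPM in replicates 1, 2 and 3. Replicate 1 stood far above the others for this isoform, and it was also where the retained-intron share of Ddx5 was highest, at 26.8% of its TPM against 12.8% and 12.1% in replicates 2 and 3. Because Ddx5-202 is only 708 bases long, it held 3.65 ± 2.10% of the gene's counts (SD, n = 3). The tables divide reads among annotated isoforms, so a read in a kept intron may come from a finished isoform or from a precursor that was not yet spliced; in chromatin RNA the 2 cannot be told apart.

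**Figure D2:**
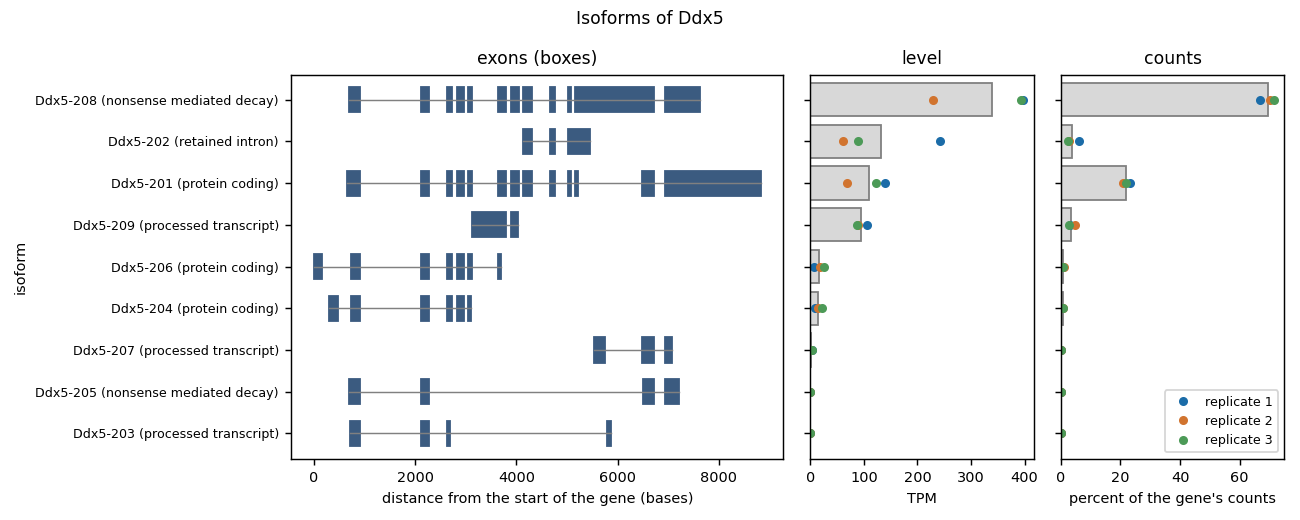
The 9 annotated isoforms of Ddx5, with exons drawn as boxes by distance from the gene's start in bases (left), TPM (middle) and percent of the gene's expected counts (right). Bars are means and points the 3 libraries. The wide box of Ddx5-208 spans the kept intron, and this isoform holds 69.5% of the counts.

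Ddx17 (chr15:79527736-79546741, minus strand), or p72, is the closest relative of Ddx5 and shares its roles as a coactivator and splicing factor. It had the next highest TPM among the 50 genes, with 212, 181 and 275 TPM in replicates 1, 2 and 3. Ddx5 had 4.25, 2.66 and 2.70 times the TPM of Ddx17 in replicates 1, 2 and 3. The log2 difference was 1.64 ± 0.38 (SD, n = 3), and Ddx5 was the higher of the pair in all 3 libraries. With 3 libraries an exact sign-flip test cannot go below a two-sided p of 0.25, so this and the other paralog differences are given without a test. Ddx17 has no isoform annotated as retained intron or as a decay target. Isoforms classed as protein coding held 100% of its TPM, against 20.3 ± 2.95% of Ddx5 TPM (SD, n = 3). The ratio of the genes is thus not that of their coding-class isoforms. Its leading isoforms, Ddx17-204 at 89.9 ± 14.9 TPM and Ddx17-202 at 84.7 ± 18.1 TPM, each run 1296 bases into an intron of the longest coding isoform and end there. Isoforms of this kind took 78.9 ± 3.87% of Ddx17 TPM (SD, n = 3).

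Dhx9, also called RNA helicase A, links transcription factors to the polymerase and unwinds structured RNA. It had 69.6, 55.0 and 81.3 TPM in replicates 1, 2 and 3. Its decay-class isoform Dhx9-209, which keeps a 142-base intron, averaged 19.9 TPM, close to the 23.7 TPM of the coding isoform Dhx9-201. The lowest gene of this role was Ddx20, or gemin 3, a part of the SMN complex that assembles spliceosomal ribonucleoproteins, with 3.89, 1.93 and 4.95 TPM. Ddx1, which acts in tRNA ligation, lay between them at 10.4 ± 2.14 TPM (SD, n = 3).

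All 9 helicases of the spliceosome had at least 1 TPM in all libraries, with means from 10.1 to 76.7 TPM. Dhx15, which takes apart the spent spliceosome, was highest, with 86.8, 50.8 and 92.5 TPM in replicates 1, 2 and 3. Ddx46, known as Prp5 in yeast and active when the U2 particle joins, had 38.7, 26.2 and 40.4 TPM. Ddx23, the Prp28 homolog that acts as U1 gives way to U6, had 24.2, 30.9 and 39.7 TPM. Dhx15 and Ddx46 were lowest in replicate 2, whereas Ddx23 was lowest in replicate 1. Dhx35 was the lowest of this role, with 8.63, 10.3 and 11.4 TPM, and Ddx42, Dhx16, Dhx8, Dhx38 and Ddx41 had means from 10.3 to 23.2 TPM. Dhx8 and Dhx38 are the homologs of yeast Prp22 and Prp16, which drive release of the spliced message and the second catalytic step.

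In the spliceosomal group, too, reads were assigned to kept introns. The retained-intron isoform Dhx15-204 had 32.3, 13.7 and 29.3 TPM in replicates 1, 2 and 3, next to 24.7, 14.3 and 26.0 TPM for the coding isoform Dhx15-201. The order of these isoforms was not the same in every library, since Dhx15-204 was above Dhx15-201 in replicates 1 and 3 and below it in replicate 2. Dhx15-204 keeps the 471-base intron at chr5:52160422-52160892, minus strand, and also runs 1565 bases into another intron. The edges of the 471-base intron are shown as for Ddx5, from chr5:52160873-52160902 and chr5:52160412-52160441.
Dhx15-204 5′ splice site: gacccaccagGTatgactgacaacagcgcc
Dhx15-204 3′ splice site: agattgcctttttctcttAGctcctgaaac

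The 4 helicases of mRNA export were all at or above 1 TPM, but at unequal levels. Ddx39b, or UAP56, which loads export factors onto spliced messages, had 60.2, 76.8 and 109 TPM in replicates 1, 2 and 3. Its paralog Ddx39 had 15.8, 13.9 and 14.1 TPM. Ddx39b was the higher in every library, by a log2 difference of 2.37 ± 0.50 (SD, n = 3), and the ratio was lowest in replicate 1 at 3.81 and highest in replicate 3 at 7.76. Ddx19a had 4.90, 3.61 and 5.58 TPM and its neighbour Ddx19b had 4.42, 3.58 and 5.0 TPM. These homologs of yeast Dbp5, which strips proteins from messages at the nuclear pore, lie 5.387 kb apart on chromosome 8. Their ratio was 1.08 ± 0.0601 (SD, n = 3), within 1.12 in every library. On expected counts, which are not per length, Ddx19a was the lower of the pair, by a log2 difference of -1.99. Reads of near-identical paralogs can be divided between them by the counting. The posterior SD averaged 3.57 for a mean count of 110 in Ddx19a-201, and 5.11 for 535 in Ddx19b-201. Retained-intron isoforms of 754 and 731 bases held 46.4 ± 4.52% of Ddx19a TPM (SD, n = 3). The coding isoform Ddx19a-201 averaged 2.54 TPM against 4.33 TPM for Ddx19b-201, so the ratio of the genes is not that of their coding isoforms.

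Ribosome biogenesis was the largest role, with 16 genes, and all 16 had at least 1 TPM in all libraries. Ddx50, a nucleolar helicase, was highest, with 85.9, 43.2 and 79.2 TPM in replicates 1, 2 and 3. Ddx24, a nucleolar helicase as well, had 29.6, 24.1 and 32.7 TPM, and Ddx47, which acts on the small subunit precursor, had 16.3, 16.5 and 24.4 TPM. The lowest was Dhx37, which releases the U3 small nucleolar RNA, with 3.82, 5.45 and 4.51 TPM, and the other 12 genes had means from 6.45 to 14.7 TPM. Ddx21, a nucleolar relative of Ddx50 whose gene lies 13.613 kb away on chromosome 10, had 11.3, 6.52 and 9.03 TPM. The ratio of Ddx21 to Ddx50 was 0.132 ± 0.0184 (SD, n = 3), so Ddx50 was the higher of these neighbours in each library. Most of the Ddx50 level sat in retained-intron isoforms, at 75.0 ± 2.15% of its TPM and 72.0 ± 2.60% of its counts. The coding isoform Ddx50-201 alone averaged 10.003 ± 3.13 TPM, and Ddx21-201 averaged 4.36 ± 0.872 TPM (SD, n = 3). Ddx21-201 was the lower of these isoforms in each library, but the ratio of the genes is not that of their coding isoforms.

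Among the helicases of translation and mRNA turnover, Ddx3x (chrX:13280970-13294052, plus strand), which helps ribosomes scan structured leaders and also acts in innate immune signalling, was highest. Ddx3x had 149, 92.1 and 104 TPM in replicates 1, 2 and 3. Ddx6, a repressor of translation and activator of decapping, had 37.4, 20.1 and 32.4 TPM. Dhx36, which unwinds G-quadruplexes, had 24.7, 13.7 and 25.3 TPM. All 3 were lowest in replicate 2 on this scale, where protein-coding genes as a whole held the least TPM. When TPM was rescaled to protein-coding genes, Ddx6 and Dhx36 were still lowest in replicate 2, but Ddx3x was lowest in replicate 3, with 625, 552 and 412 scaled TPM in replicates 1, 2 and 3. Dhx29, a scanning factor of the small ribosomal subunit, was the lowest of the role with 5.0, 3.61 and 6.31 TPM, and Dhx34, a factor of nonsense-mediated decay, averaged 8.91 ± 1.73 TPM (SD, n = 3).

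Ddx3x has 3 isoforms annotated as retained intron, each keeping a different short intron. Together they held 62.1 ± 4.99% of Ddx3x TPM but 19.2 ± 3.40% of its counts (SD, n = 3), and the coding isoform Ddx3x-201 held 80.8 ± 3.40% of the counts. TPM is per length, and the 3 isoforms are 792, 802 and 1003 bases long against 4692 bases for Ddx3x-201. The 80-base intron that Ddx3x-204 keeps, at chrX:13287384-13287463, plus strand, is shown as the shortest of these, with its GT and AG ends in capitals.
Ddx3x-204 intron: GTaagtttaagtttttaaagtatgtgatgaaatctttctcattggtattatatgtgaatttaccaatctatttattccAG
G and C make up 25% of this intron and 26.8% of the Ddx5-202 intron above.

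Of the 2 mitochondrial helicases, Dhx30, a factor of mitochondrial ribosome assembly, had 41.8, 22.4 and 36.9 TPM in replicates 1, 2 and 3. Ddx28, which acts on the large mitochondrial subunit, had 1.32, 1.06 and 2.40 TPM, on 37, 68 and 76 expected counts. Ddx28 was the lowest helicase gene that still reached 1 TPM in each library. It is a gene of 1 exon inside the opposite-strand gene Dus2, and whether counting used strand is not given in the sources used here, so the 2 genes may share reads.

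The germline helicases were the lowest of the family. Ddx4, or Vasa, a marker of germ cells, had 0.42, 0.46 and 0.65 TPM in replicates 1, 2 and 3, on 16, 39 and 28 expected counts. Ddx43, known in human as a testis antigen, had 0, 0 and 1 counts, and Ddx25, a testis helicase, had 0 counts in all 3 libraries. A count of 0 allows up to 3 counts, which is 0.273, 0.140 and 0.209 counts per 1000000 in replicates 1, 2 and 3, for counting error only. No germline helicase reached 1 TPM in any library.

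The highest of the remaining genes was Ddx60 (chr8:61928087-62038244, plus strand), an interferon-inducible helicase that promotes antiviral signalling. Ddx60 had 96.9, 66.3 and 94.0 TPM in replicates 1, 2 and 3. Its coding isoform Ddx60-201 held 80.01 ± 2.38% of its counts and the retained-intron isoform Ddx60-203 held 10.7 ± 4.35% (SD, n = 3). Ddx60-203 keeps the 1551-base intron at chr8:62023298-62024848, and its edges, from chr8:62023288-62023317 and chr8:62024829-62024858 on the plus strand, are shown as above.
Ddx60-203 5′ splice site: tcaaaaatcgGTacgtgtattttagttcac
Ddx60-203 3′ splice site: tctcaactcattctgctcAGagttcacagg
Dhx57 had 20.1, 13.3 and 21.7 TPM. Ddx11, a DNA helicase of sister chromatid cohesion, had 8.14, 11.7 and 12.04 TPM. Ddx59 was the lowest of this group with 4.07, 2.27 and 4.66 TPM, and Dhx32 and Dhx40 averaged 6.49 ± 0.977 and 4.99 ± 1.09 TPM (SD, n = 3).

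The promoters of the family were mostly rich in CpG. RefSeq promoter sequences (GRCm38.p6) matched 45 of the 50 genes, and the 250 bases before each start were read. Dhx38, Ddx6, Ddx39, Ddx23 and Ddx11 were not matched. The median ratio of observed to expected CpG was 0.878 in the 45 helicase promoters, against 0.606 in 13824 promoters of protein-coding genes and 0.759 in the 7235 of them whose gene had a mean of at least 1 TPM. The letters CCGGAAG, bound by ETS factors, stood on either strand of 14 of 45 helicase promoters (31.1%), against 10.4% of all promoters and 16.6% of those of expressed genes. The cyclic AMP response half-site TGACGT stood in 13 of 45 (28.9%), against 8.43% of all and 11.5% of expressed. The TATA box TATAAA stood in none of the 45, against 10.5% of all and 6.05% of expressed. CCAAT stood in 46.7% of the helicase promoters, against 36.6% of all and 37.1% of expressed. The NRF1 letters CATGCGC stood in 13.3%, against 4.64% of all and 6.76% of expressed, and the AP-1 letters TGANTCA in 2.22%, against 5.85% of all and 3.84% of expressed. For the SP1 letters GGGCGG the share was 62.2%, against 47.5% of all but 60.8% of expressed. For the E-box CACGTG it was 8.89%, above the 7.33% of all and below the 9.04% of expressed. The interferon-stimulated response element stood in the promoters of Ddx49 and Ddx60, 4.44% against 2.93% of all and 2.76% of expressed. The helicase shares above are of all 45 promoters, of which 42 belong to genes with a mean of at least 1 TPM. In the 42 the median CpG ratio was 0.873. The ETS letters stood in 33.3% of the 42, TGACGT in 31.0%, CCAAT in 42.9%, CATGCGC in 14.3% and TGANTCA in 2.38%. CACGTG stood in 7.14%, the interferon-stimulated response element in 4.76% and TATAAA in none. GGGCGG stood in 59.5% of the 42, below the 60.8% of expressed. A match describes letters and not binding.

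The promoters of Ddx17 and Ddx60 are shown as a CpG-rich and a CpG-poor example. Each is the 250 bases before the start, with every match of the ETS, cyclic AMP response, CCAAT and interferon-stimulated response letters on either strand in capitals. The Ddx17 promoter (chr15:79546742-79546991, minus strand, GRCm38) has an observed to expected CpG ratio of 0.996 and holds the ETS and cyclic AMP response letters.
Ddx17: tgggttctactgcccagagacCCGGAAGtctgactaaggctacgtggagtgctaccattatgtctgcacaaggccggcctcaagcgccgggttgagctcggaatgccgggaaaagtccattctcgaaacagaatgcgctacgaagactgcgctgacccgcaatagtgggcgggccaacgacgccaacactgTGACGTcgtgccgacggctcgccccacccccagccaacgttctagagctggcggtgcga
The Ddx60 promoter (chr8:61927837-61928086, plus strand, GRCm38) has a CpG ratio of 0.397 and holds CCAAT and, nearer the start, the interferon-stimulated response element at separate places.
Ddx60: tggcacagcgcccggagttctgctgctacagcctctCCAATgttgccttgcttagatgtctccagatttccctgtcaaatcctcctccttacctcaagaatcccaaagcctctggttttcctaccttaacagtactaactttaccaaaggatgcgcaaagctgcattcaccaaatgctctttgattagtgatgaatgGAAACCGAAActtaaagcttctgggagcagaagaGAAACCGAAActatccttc

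On TPM, the median retained-intron share of the helicase genes was below that of other genes in each library. The share was the TPM of a gene's isoforms annotated as retained intron over the TPM of all its isoforms. It was taken for the 39 helicase genes that have such an isoform and a mean of at least 1 TPM. The median share was 43.03 ± 7.23% in the helicase genes and 47.6 ± 3.19% in 6506 protein-coding genes chosen in the same way (SD over libraries, n = 3). By library it was 48.6%, 34.9% and 45.6% in the helicase genes, against 50.8%, 44.4% and 47.7% in the protein-coding genes, in replicates 1, 2 and 3. The gap was widest in replicate 2. Of the 39, 13 had a mean share of at least 50%, that is 33.3%, against 45.9% of the 6506. The share was highest in Ddx49 at 84.5%, 81.5% and 81.1% in replicates 1, 2 and 3, in Ddx50 at 76.9%, 72.7% and 75.5%, and in Ddx11 at 77.3%, 71.7% and 75.6%. Ddx54 followed with 73.1%, 75.2% and 75.9%, and Ddx47 with 65.8%, 60.7% and 63.3%. These 5 were above 60% in each library. Ribosome biogenesis holds 13 of the 39 genes, and their shares ran from 9.11% in Ddx18 to 82.4% in Ddx49, with a median of 47.5% and 6 at 50% or more. The lowest shares were 9.11 ± 10.9% in Ddx18, 12.3 ± 8.49% in Dhx32 and 12.3 ± 10.8% in Dhx37 (SD, n = 3), where the libraries spread widely. Ddx18 had 0%, 21.1% and 6.17% in replicates 1, 2 and 3, and Dhx37 had 0%, 20.2% and 16.9%. In the second quantification Ddx18 was not among the lowest, with 43.1 ± 1.91%, whereas Dhx37 had 7.59 ± 7.41% and Dhx32 20.8 ± 6.49% (SD, n = 3).

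**Figure D3:**
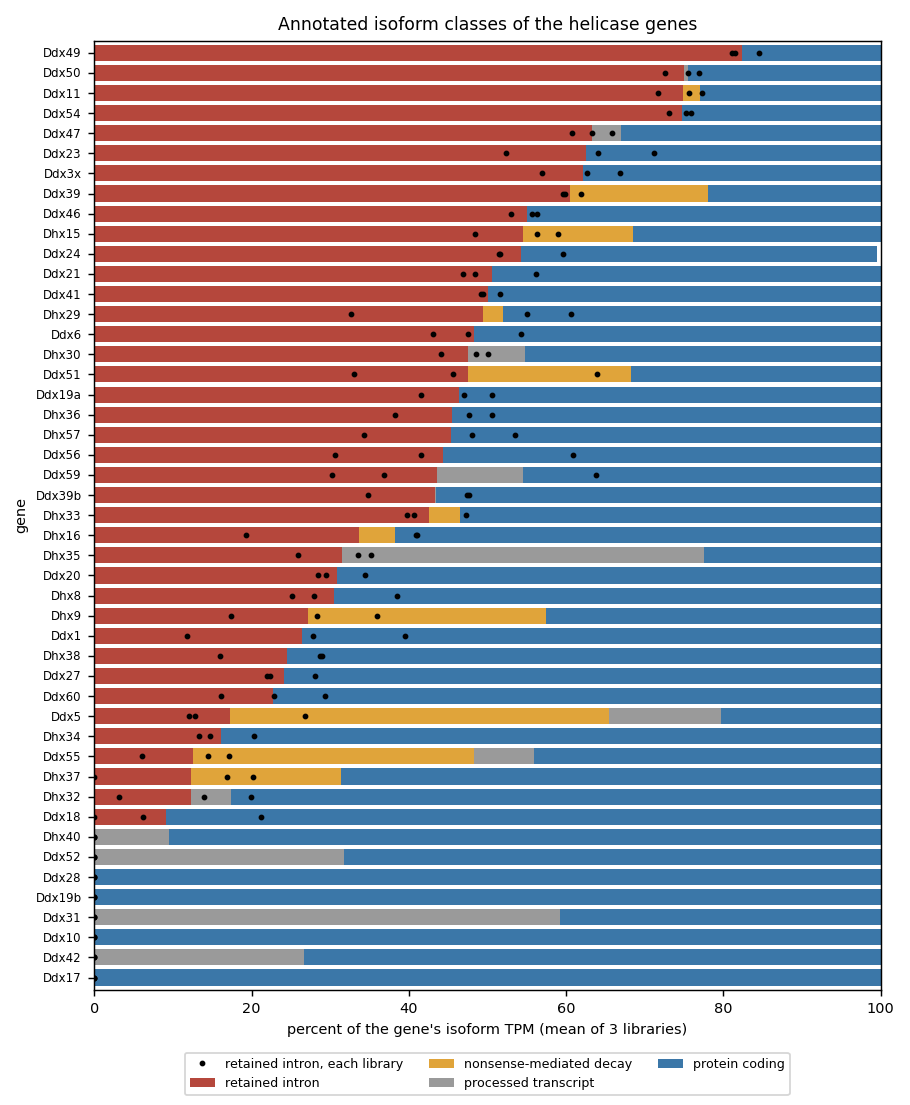
Percent of each gene's TPM in isoforms of each annotated class, as the mean of 3 libraries, for the 47 helicase genes with a mean of at least 1 TPM; black points give the retained-intron share of each library. Ddx49 is at the top with 82.4%, and Ddx5 stands out by the wide share of its decay-class isoform.

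The scale mattered for this share. On expected counts the median was 20.8 ± 1.88% in the helicase genes and 30.5 ± 3.06% in the protein-coding genes (SD, n = 3), and 8 of 39 helicase genes reached 50%, against 30.3% of the protein-coding genes. With the second quantification the medians were in the other order, 48.6 ± 2.68% of TPM in the helicase genes and 45.6 ± 1.66% in the protein-coding genes (SD, n = 3), and 19 of 39 helicase genes reached 50%, against 43.3% of the protein-coding genes. On average Ddx50, Ddx49, Ddx54, Ddx11, Ddx47, Ddx46 and Ddx23 stayed above 50% on both scales. Dhx30 did so only on counts, with 56.2% of counts and 47.6% of TPM. Ddx21 had 50.5% of TPM and 6.15% of counts, and Ddx51 had 47.5% of TPM and 4.95% of counts.

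**Figure D4:**
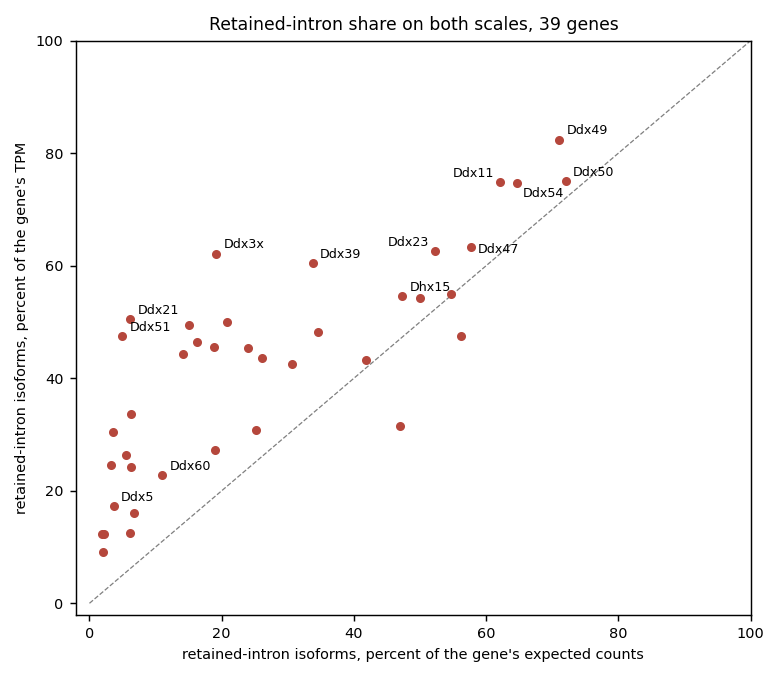
Retained-intron share of each of the 39 helicase genes with such an isoform, as percent of expected counts (horizontal) and of TPM (vertical), means of 3 libraries, with the line of equality dashed. Ddx3x lies far above the line, at 62.1% of TPM and 19.2% of counts, and Ddx50 lies close to it.

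Isoforms can also contain intron sequence without being classed as retained intron, as Ddx5-208 does. A measure by structure was therefore added, after the values had been seen: an isoform counted as intron-containing if an exon runs at least 50 bases from a reference exon into an intron of the gene's longest coding isoform, alternative ends included. Summed over the family, 62.6 ± 3.52% of TPM was in such isoforms, against 47.4 ± 2.48% for all protein-coding genes (SD, n = 3). Decay-class isoforms took 19.6 ± 1.20% of the family's TPM, against 3.71 ± 0.319% for all protein-coding genes. The decay-class sum rests on Ddx5: without it, a choice also made after the values had been seen, the remaining 49 genes had 3.53 ± 0.566% in that class. Their intron-containing sum was 53.1 ± 1.96% without Ddx5, lower than with it, and it was above that of protein-coding genes in each library, at 55.3%, 51.5% and 52.4% in replicates 1, 2 and 3 against 49.9%, 44.9% and 47.3%. That sum leans on Ddx17, the most abundant of the 49 at 223 TPM, with 78.9 ± 3.87% of its TPM in such isoforms (SD, n = 3). A sum without Ddx17 was not taken, so an excess in the other genes is not shown. By single genes, 13 of 43 helicase genes (30.2%) had at least 50% of their counts in intron-containing isoforms, against 33.7% of 7675 protein-coding genes. On TPM, 19 of the 43 reached 50%, against 51.9% of the protein-coding genes.

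Whole introns of the longest coding isoform were kept by 46 annotated isoforms of 22 helicase genes. These were 55 distinct introns, all with GT and AG ends. Their median length was 303 bases, against 900.5 bases for the 812 introns of all helicase genes, so the introns kept in annotated isoforms were mostly the short ones. That is a property of the annotation, which sets where reads can be assigned. By TPM the leading isoform was a coding one in 34 of the 47 helicase genes with a mean of at least 1 TPM, a retained-intron one in 11, a decay-class one in 1, Ddx5, and a processed transcript in 1. The same tally over all protein-coding genes was not made.

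Differences between libraries went with GC content. For this, TPM was rescaled to sum to 1000000 over protein-coding genes in each library, since these held 23.9%, 16.7% and 25.3% of TPM in replicates 1, 2 and 3. The median deviation of the 47 helicase genes from their own mean of log2(scaled TPM + 1) was -0.11, 0.11 and 0.03 in replicates 1, 2 and 3, against -0.01, -0.06 and 0.07 over 10251 protein-coding genes; the helicase sign turned in replicates 1 and 2 with TPM as deposited and in replicate 3 with TMM or DESeq2 scaling. The helicase median minus the protein-coding median came to -0.10, 0.16 and -0.04 (in the order of the replicates) and kept these signs under each of the 4 scalings. Of the 47, 28 were lowest in replicate 1 and 23 were highest in replicate 2, counts that were not taken over all protein-coding genes. The log2 difference of replicate 1 minus replicate 2 went with the GC content of the longest coding isoform, with a Spearman rho of -0.73 and a Pearson r of -0.74 across the 47 helicase genes. It was -0.58 and -0.55 across 10229 protein-coding genes. These are correlations across genes of the same libraries, which are not independent, and are given as a description. In the 24 helicase genes with more GC the median deviation was -0.40, 0.32 and 0.04 in replicates 1, 2 and 3, and in the 23 with less GC it was 0.05, -0.02 and 0.02. The split at the helicase genes' median GC was chosen after the values were seen. Depth and starting RNA also differed among these libraries, and their part in the difference was not tested.

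**Figure D5:**
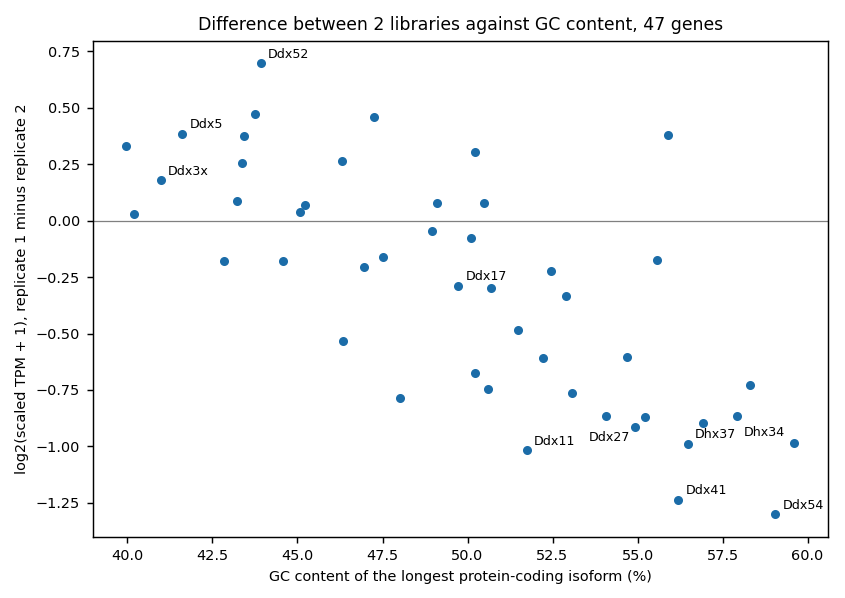
Log2(scaled TPM + 1) in replicate 1 minus replicate 2 (vertical) against the GC content in percent of the longest coding isoform (horizontal), 1 point for each of 47 helicase genes. Genes of high GC content such as Ddx54 and Ddx41 lie lowest, and Ddx52 and Ddx5, of low GC content, lie above 0.

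The 5 helicase genes that varied most between libraries were all among the 24 with more GC. Ddx54, a corepressor and nucleolar helicase, had 22.2, 56.2 and 36.9 scaled TPM in replicates 1, 2 and 3, an SD of 0.65 on the log2 scale. Ddx41, a spliceosomal helicase that also senses DNA, had 28.5, 68.5 and 49.8 scaled TPM, an SD of 0.63. Both were lowest in replicate 1 and highest in replicate 2. Dhx37 with 16.0, 32.7 and 17.8, Ddx11 with 34.1, 69.9 and 47.6 and Dhx34 with 29.0, 58.4 and 39.8 scaled TPM had the same order, with SDs of 0.53, 0.51 and 0.49. Of the 47 genes, 24 had an SD below 0.25, a share that was not taken over all protein-coding genes. Ddx46 had 162, 157 and 160 scaled TPM, an SD of 0.02, so libraries that differed for Ddx54 were alike for Ddx46.

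The second quantification ordered the genes in nearly the same way. Across the 47 helicase genes, log2(mean TPM + 1) of the first and the second quantification had a Pearson r of 0.96 and a Spearman rho of 0.94. Across 10245 protein-coding genes the same correlations were 0.94 and 0.93. The second gave a higher TPM for 44 of the 47 and was within 2 times of the first for 40, counts that were not taken for other genes. The difference was widest for Dhx16, with 93.3 ± 33.7 TPM in the second quantification and 17.0 ± 3.81 TPM in the first (SD, n = 3). There the 825-base retained-intron isoform Dhx16-202 had 77.1 TPM in the second and 1.45 TPM in the first. Dhx35 had 35.4 ± 4.55 TPM in the second and 10.1 ± 1.38 TPM in the first (SD, n = 3). Dhx40 had 13.6 ± 5.38 TPM in the second and 4.99 ± 1.09 TPM in the first, and Dhx29 had 12.2 ± 3.51 TPM in the second and 4.97 ± 1.35 TPM in the first. Ddx1 had 24.1 ± 6.16 TPM in the second and 10.4 ± 2.14 TPM in the first. For these 5 genes the quantifications differed by more than 2 times. Ddx5 had 873 TPM in the second quantification and Ddx17 218 TPM.

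Most related helicases whose symbol does not start with Ddx or Dhx were present as well. Of 21 such genes chosen from knowledge of the field, 18 had at least 1 TPM in all libraries, and their median was 17.4 TPM. The highest were Eif4a2 at 340 ± 69.7 TPM and Eif4a1 at 227 ± 8.64 TPM, paralogs in the translation initiation complex, and Ascc3 at 61.0 ± 17.95 TPM, a subunit of an activating signal cointegrator (SD, n = 3). Mov10l1, Tdrd9 and D1Pas1, which act in the germline, were listed at 0 in all libraries.

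Of the 50 helicase genes, 20 overlap another annotated gene, 13 of them one on the opposite strand and 8 a protein-coding one there. Adgre5, a leukocyte surface receptor opposite to Ddx39, had 42.9 ± 1.49 TPM, Homer3 opposite to Ddx49 had 19.8 ± 5.19 TPM, and Smarcc1 opposite to Dhx30 had 18.1 ± 3.76 TPM (SD, n = 3). If counting did not use strand, reads in the stretch where the genes of a pair overlap cannot be told apart. For Dhx30 and Smarcc1 that stretch is only chr9:110117708-110117830. The share of all protein-coding genes with such overlaps was not taken.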

How the data were processed

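Ribosomal-RNA-depleted chromatin RNA of 3 libraries was used, grouped by the labels. The authors deposited gene and transcript tables with expected counts, TPM, the percent of a gene's abundance in each isoform and posterior SDs of the counts, per the file headers. A second transcript table deposited by the authors gives estimated counts and TPM. Reads were processed against assembly mm10, per the labels, with GENCODE M21 as the gene set, per the deposited text. The aligner, the counter and the use of strand: not given in the sources used here. Depth per library is given above. Intervals and floors cover counting error only.

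Helicase genes and lists were chosen with earlier results of these data known. Genes given per library were Ddx5, the 3 highest and the lowest of each role, genes at the floor of 3 counts, the 5 with the largest SD between libraries, the 5 largest and 3 smallest retained-intron shares, the 5 largest differences between quantifications, and paralog pairs. Promoters, other isoforms and overlapping genes were added after their values were seen. Log2 values used TPM + 1, which understates differences of low genes. Structure, scaling and sequence steps were tested on simulated data. With 1 group, no model was fitted; expected counts were rounded for the TMM factors of edgeR 4.0.16 and size factors of DESeq2 1.42.0, which served as scaling alternatives. Python 3.11.15, pandas 2.3.3 and numpy 2.4.6 were used.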

Additional observations from a re-analysis of the deposited data

How the results depend on the processing

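No paired analysis was possible because there was 1 group. The median level of the helicase genes, 11.96 TPM, became 18.4 TPM with the second quantification and 55.9 TPM when TPM was rescaled to protein-coding genes; without 1 replicate it was 11.0 to 12.7 TPM. Deviations depended on the scaling. In replicate 1 the deviation was -0.25 with TMM, -0.27 with DESeq2 size factors and 0.032, a turn of sign, with TPM as deposited; in replicate 2 it was 0.28, 0.31 and, turned, -0.24; in replicate 3 it turned to -0.046 and -0.056 and was 0.24 with TPM as deposited. With TPM as deposited the protein-coding median itself moved to 0.11, -0.36 and 0.26 in replicates 1, 2 and 3, and the helicase median minus it was -0.08, 0.13 and -0.02. The retained-intron share, 43.03% as the median, was 20.8% on expected counts, 29.4% of the summed TPM and, by structure on counts, 24.7%; without 1 replicate it was 40.2% to 47.1%. The count of genes at 50% or more, 13, was 8 on counts, 19 with the second quantification, 19 (of 43 genes) by structure on TPM, and 11 to 17 without 1 replicate. Without Ddx5 the decay-class sum fell to 3.53% and the intron-containing sum to 53.1%. The log2 difference of Ddx5 minus Ddx17 was 1.17 on counts. That of Ddx19a minus Ddx19b was 0.53 with the second quantification and -1.99 on counts, a turn of sign. That of Ddx21 minus Ddx50 was -2.41 with the second quantification and -2.20 on counts. Without 1 replicate these were 1.42 to 1.76, 0.07 to 0.13 and -2.91 to -2.69. The cause was not tested.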
